A study of Homo sapiens with 13 samples.

Results

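The polyamine genes described here were ODC1, AMD1, SRM and SMS, which act in synthesis, OAZ1, OAZ2 and AZIN1, which set the stability of ODC1, and SAT1 and SMOX, which act in breakdown. They were chosen by symbol and all 9 were found, among 24875 symbols in the table of the Silvestrol experiment and 13121 in that of the INK128 experiment. All 9 passed the filter on low values in the Silvestrol table, with 10509 genes in all, and 8 passed in the INK128 table, with 7092 genes in all, SMOX being too low there. The cells were MDA-MB-231, a human breast cancer cell line of mesenchymal type that lacks the hormone receptors, and every culture was of this 1 line.

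In the Silvestrol experiment cells received 25 nM Silvestrol, an inhibitor of the RNA helicase eIF4A, or its vehicle DMSO. Ribosome footprints (RFs) were sequenced after 1 h in passage 3 and after 2 h in passages 3 and 4, with an untreated culture of passage 3 beside them. mRNA was sequenced after 2 h in passage 3, with 1 library for each treatment. In the INK128 experiment passage 3 cells received 200 nM INK128, an inhibitor of the catalytic site of mTOR, or DMSO for 2 h, and each treatment had 1 RF library and 1 library of total RNA. The title of the passage 3 Silvestrol RF library at 2 h gives 2 h while its treatment label gives 1 h, and the title was used. The treatment label of the DMSO mRNA library reads untreated, and its column in the table carries no drug name, so it was identified only because the Silvestrol mRNA library has a column of its own. Every mRNA and translational efficiency (TE) change with Silvestrol rests on that library.

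Polyamines are small basic molecules that bind RNA and are needed for growth, and tumour cells often make more of them. ODC1 converts ornithine to putrescine, and AMD1 decarboxylates S-adenosylmethionine to give the aminopropyl donor that SRM uses to make spermidine and SMS uses to make spermine. The antizymes OAZ1 and OAZ2 bind ODC1 and deliver it to the proteasome without ubiquitin, and AZIN1, a relative of ODC1 with no decarboxylase activity, holds the antizymes away from it. SAT1 acetylates spermidine and spermine for export or oxidation, and SMOX oxidises spermine. Much of this control is known to act at translation, since polyamines stall ribosomes on a short upstream open reading frame of AMD1 and promote the frameshift without which no full-length antizyme is made.

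The following sequences are shown because they are the mRNA elements on which this control acts in AMD1 and the antizymes. The shorter of 2 upstream frames of SAT1 is shown beside that of AMD1. They were read from GRCh37, the build the authors call hg19. In the upstream frames the capitals mark the start and stop codons. In the frameshift sites the capitals mark the last sense codon of the first frame and the stop codon that follows it, and the annotated coding sequence skips the T at base 16 of the 30 bases shown.
AMD1 upstream frame (chr6:111195999-111196019, plus strand): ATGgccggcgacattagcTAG
SAT1 upstream frame (chrX:23801352-23801366, plus strand): ATGgtgccagccTGA
OAZ1 frameshift site (chr19:2271427-2271456, plus strand): cctcggtggtgcTCCTGAtgcccctcaccc
OAZ2 frameshift site (chr15:64983700-64983729, minus strand): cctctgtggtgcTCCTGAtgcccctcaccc

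The AMD1 frame starts at base 12 of the transcript, has 6 codons before its stop, and lies within the 5′ UTR. The SAT1 frame shown has 4 codons before its stop and also ends within the 5′ UTR. The other SAT1 frame has 29 codons and overlaps the coding sequence. The frameshift sites of OAZ1 and OAZ2 were the same at 29 of 30 bases.

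The 9 libraries of the Silvestrol experiment held between 2652423 counted reads (Silvestrol RFs at 2 h, passage 4) and 50315607 (DMSO mRNA), so passage 4 carried the least precise values. The FPKM values of the INK128 experiment came with no read counts, and their depth is unknown. VIM, CD44, CAV1 and AXL, markers of this line, were between 85.7 and 7031 RPKM in the 7 RF libraries. ESR1, CD3E and HBB were listed at 0 in each of them, and PGR, CDH1 and PTPRC did not exceed 0.108 RPKM. ERBB2, another marker expected to be low, had 1.63 to 4.05 RPKM in the RF libraries and 18.7 to 25.8 RPKM in the mRNA libraries. CCND1, the mRNA of cyclin D1 and a known target of eIF4A, had a log2 RF change of −1.30 with an SE of 0.16 at 2 h (edgeR, adjusted p = 0.0214).

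In control cells OAZ1 had the highest footprint level per length of the group, and the enzymes of spermine synthesis and oxidation the lowest. Over the 4 control RF libraries (untreated, DMSO at 1 h, and DMSO at 2 h in both passages) the mean was 373 RPKM ± 58.9 (SD, n = 4) for OAZ1, 185 ± 31.4 for SRM, 137 ± 32.4 for ODC1, 101 ± 12.7 for OAZ2 and 98.3 ± 8.69 for AZIN1. It was 61.4 RPKM ± 12.4 (SD, n = 4) for SAT1, 21.3 ± 3.58 for AMD1, 8.74 ± 1.66 for SMOX and 4.03 ± 1.98 for SMS. Ranges overlapped between neighbours in this order from SRM through AZIN1, and between SMOX and SMS, while OAZ1, AZIN1, SAT1 and AMD1 each stood apart from the gene next below. AMD1, which supplies the aminopropyl groups, was thus lower in RPKM than ODC1 in every control library.

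The 2 tables differed on SMS. In the Silvestrol table SMS had only 15 to 24 reads in a control RF library, counted over 237 to 683 nt of its sequence in the 7 RF libraries, and it was the lowest of the group. In the INK128 table it had 156 FPKM of footprints in the DMSO library, next to OAZ1 at 164 FPKM. The authors left positions with non-unique reads out of the Silvestrol table, and the part of this in the low SMS count was not tested.

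TE, the ratio of RF to mRNA level, was low for OAZ1 with DMSO, at 0.334 against a median of 1.84 over all genes (percentile 6.84). ODC1 had a TE of 0.998, SRM of 1.22, SAT1 of 1.17 and SMOX of 0.700, all below the median. OAZ2, AZIN1 and AMD1 were near it, at 1.83, 1.90 and 2.29. In the INK128 table with DMSO OAZ1 was at percentile 13.0 and OAZ2, near the median in the first table, at percentile 8.81. SMS was at percentile 3.12 in the first table and 89.6 in the second, and SMOX at 17.9 and 69.4. The OAZ1 mRNA was among the most abundant of the cell, at 1227 RPKM (percentile 99.8).

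After 2 h of Silvestrol, footprints fell on ODC1, the first enzyme of the pathway, and on OAZ2 and AZIN1, which control it in opposite directions. These 3 of 9 genes passed the test as lower and none of the 9 as higher. Of all 10509 genes 7.56% were called lower and 2.17% higher (edgeR quasi-likelihood test, Benjamini-Hochberg adjusted p below 0.05). At an unadjusted p under 0.05, 4 of the 9 passed, beside 31.2% of all genes. DESeq2 also called 3 of the 9 lower and 0 higher, beside 9.64% and 5.85% of all genes, and gave SMS no adjusted p. The median log2 RF change of the 9 genes was −0.55, beside −0.01 over all genes. These p-values measure the spread between 2 libraries of each treatment, of passages 3 and 4, the latter labelled a biological replicate.

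The DMSO and Silvestrol libraries carry the same passage numbers, though the labels do not say that a pair came from 1 culture, and with the passage as a block 6 of the 9 were called lower (ODC1, OAZ2, AZIN1, AMD1, SMOX and OAZ1) and 1 higher (SMS). That fit also called 28.1% of all genes lower and 25% higher. It has 1 residual degree of freedom and rests on a spread shared over all genes. With the 1 h pair added as a further block 6 of the 9 were called lower and none higher, beside 26.4% and 21.7% of all genes. That pair is of passage 3 too, and this fit takes its change at 1 h as a replicate of the change at 2 h. None of the 9 was called when the Silvestrol library of passage 3 or that of passage 4 was left out, and 0% of all genes were called then in either direction. An unadjusted p under 0.05 was left for 4 of the 9 without that of passage 3, beside 15.1% of all genes, and for 3 of the 9 without that of passage 4, beside 17.9% (edgeR).

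**Figure D1:**
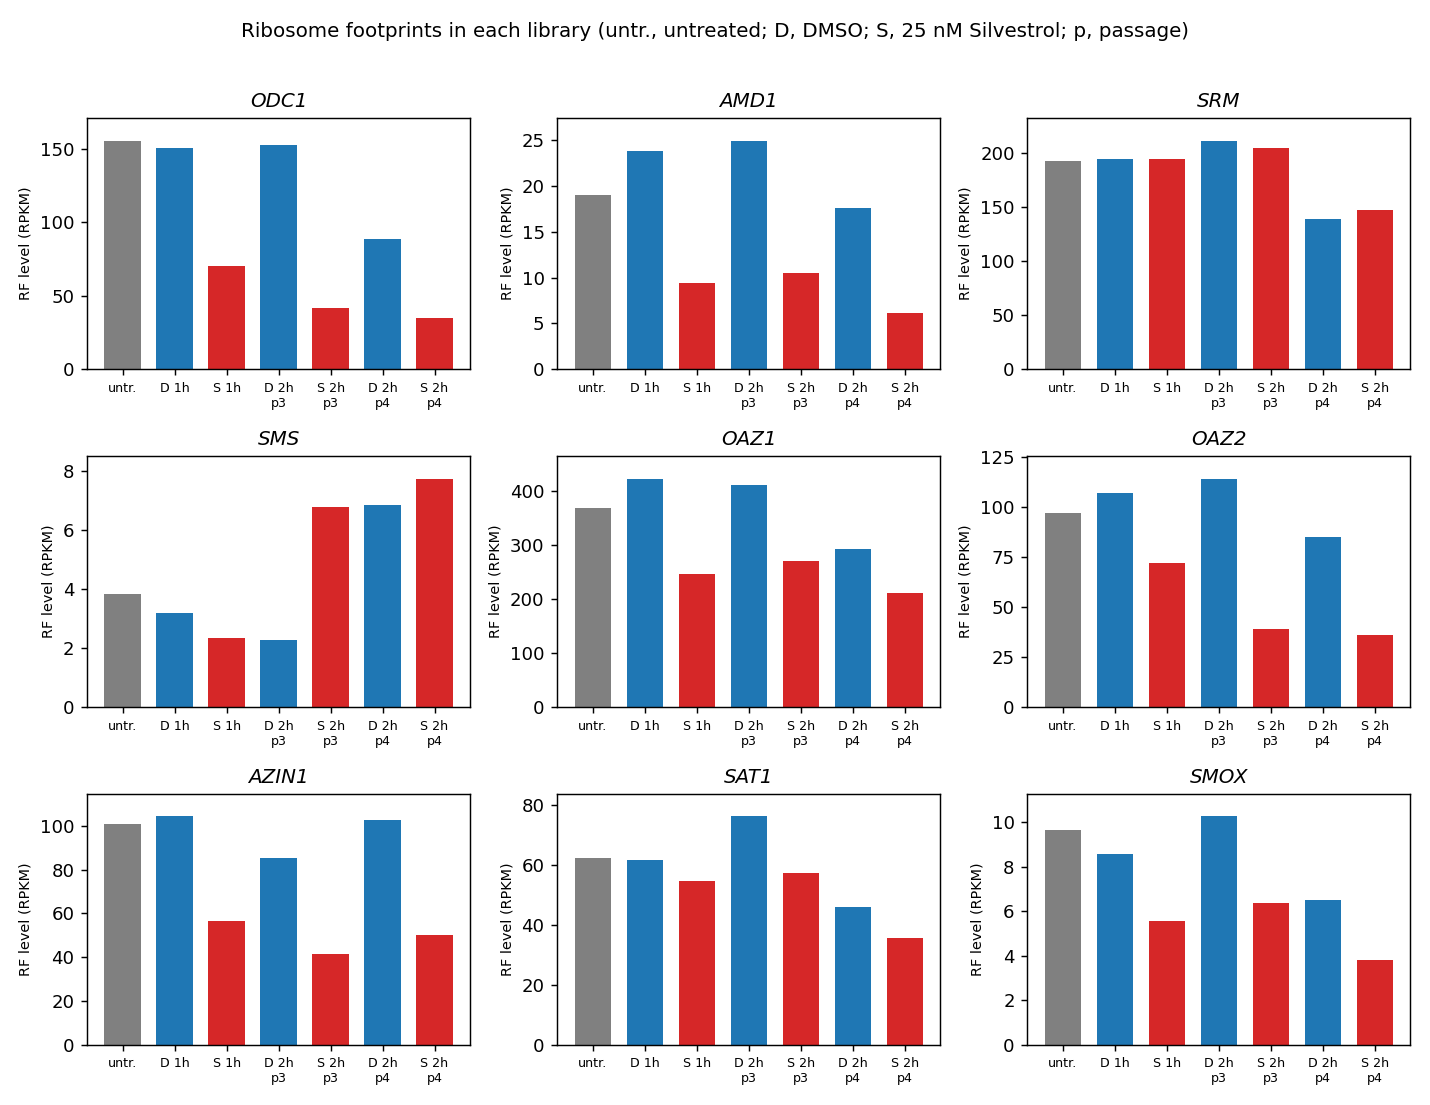
Footprint levels (RPKM, linear axis from 0) of the 9 genes in each of the 7 RF libraries of the Silvestrol experiment, 1 bar for each library. The 3 Silvestrol bars (red) of ODC1 lie between 35.1 and 70.1 RPKM and its 4 control bars (grey, blue) between 88.3 and 155 RPKM, while those of SRM overlap.

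Of the synthetic enzymes ODC1 alone passed the test. It had 155 RPKM untreated, 151 with DMSO at 1 h, and 153 and 88.3 with DMSO at 2 h in passages 3 and 4, against 70.1 with Silvestrol at 1 h and 41.9 and 35.1 at 2 h. All 3 Silvestrol libraries were below all 4 controls, and the DMSO library of passage 4 was well below the other controls. The log2 change in RF counts at 2 h was −1.46 with an SE of 0.30, or 2.75-fold lower (edgeR, adjusted p = 0.0472), on 965 to 6744 reads with DMSO and 167 to 952 with Silvestrol. This call was the closest to the threshold, and with RLE in place of TMM scaling its adjusted p was 0.0514. With the passage as a block the adjusted p was 8.46e-35 (edgeR).

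AMD1, which decarboxylates S-adenosylmethionine, had 19.0 RPKM untreated and 23.8, 24.9 and 17.6 RPKM in the DMSO libraries at 1 h and at 2 h in passages 3 and 4. With Silvestrol it had 9.38, 10.5 and 6.18 RPKM in the same order. The groups did not overlap, but the log2 change in counts of −0.82 with an SE of 0.28 missed the threshold (edgeR, adjusted p = 0.121), and it passed with the passage as a block (adjusted p = 0.000882). The passage 4 Silvestrol library held 20 AMD1 reads. The length over which AMD1 reads were counted rose with Silvestrol 1.35 times in passage 3 and 1.21 times in passage 4 relative to the median gene, and with an offset for it the log2 change was −1.15 with an SE of 0.37.

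SRM, the spermidine synthase, was high and even, with 193 RPKM untreated and 195, 212 and 139 RPKM with DMSO against 194, 205 and 147 RPKM with Silvestrol. Control and Silvestrol libraries overlapped, and within each pair the levels differed by little. Its log2 change at 2 h was 0.17 with an SE of 0.26 (edgeR, adjusted p = 0.695, and 0.143 with the passage as a block). SMS, the spermine synthase, had 3.83 RPKM untreated, 3.17, 2.26 and 6.84 RPKM with DMSO and 2.32, 6.77 and 7.73 RPKM with Silvestrol, on 12 to 25 reads in a library. The libraries overlapped, and the log2 change of 1.12 had an SE of 0.97 (edgeR, adjusted p = 0.482). It was 0.10 without the DMSO library of passage 3 and 2.51 without that of passage 4. Called higher with the passage as a block (adjusted p = 0.00855), SMS was no longer called with the 1 h pair added to that fit (adjusted p = 0.143).

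Of the antizymes, OAZ2 fell and OAZ1 did not pass the test. OAZ2 had 96.9 RPKM untreated and 107, 114 and 84.8 RPKM with DMSO, against 71.8 RPKM with Silvestrol at 1 h and 39.0 and 35.7 RPKM at 2 h. No Silvestrol library reached a control library, and both 2 h libraries were far below that of 1 h. The log2 change in counts at 2 h was −1.28 with an SE of 0.23, or 2.42-fold lower (edgeR, adjusted p = 0.0378). OAZ1 had 367 RPKM untreated and 422, 410 and 292 RPKM with DMSO, against 246, 271 and 211 RPKM with Silvestrol. These groups did not overlap either, but the log2 change of −0.26 with an SE of 0.18 was not significant (edgeR, adjusted p = 0.386), and it passed with the passage as a block (adjusted p = 0.0226). Leaving out 1 library moved it to between −0.06, without the DMSO library of passage 3, and −0.43, without that of passage 4. The OAZ1 and OAZ2 changes were not tested against each other.

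AZIN1, the antizyme inhibitor, had 101 RPKM untreated and 104, 85.5 and 103 RPKM with DMSO, against 56.7, 41.4 and 50.2 RPKM with Silvestrol. Its control libraries lay close together, the 2 passages included, and all Silvestrol libraries were below them. The log2 change at 2 h was −0.92 with an SE of 0.15, or 1.89-fold lower (edgeR, adjusted p = 0.0322). It had the smallest SE of the 9 genes.

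Neither gene of polyamine breakdown passed the test. SAT1, the acetyltransferase, had 62.2 RPKM untreated and 61.5, 76.0 and 45.8 RPKM with DMSO against 54.4, 57.4 and 35.6 RPKM with Silvestrol, and the libraries overlapped. Its log2 change was −0.22 with an SE of 0.36 (edgeR, adjusted p = 0.713, and 0.187 with the passage as a block). SMOX, the spermine oxidase, had 9.65 RPKM untreated and 8.56, 10.3 and 6.48 RPKM with DMSO against 5.55, 6.37 and 3.79 RPKM with Silvestrol. Its groups just failed to overlap, and the log2 change of −0.55 with an SE of 0.40 was not called (edgeR, adjusted p = 0.403) except with the passage as a block (adjusted p = 0.0120). Leaving out 1 library moved the SMOX change to between −0.12, without the DMSO library of passage 3, and −1.10, without the Silvestrol library of passage 3.

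Over both times, the Silvestrol libraries lay below all controls for 6 of the 9 genes (ODC1, AMD1, OAZ1, OAZ2, AZIN1 and SMOX) and above them for none. The same held for 32.9% and 10.2% of all genes. RPKM is scaled within each library, so a loss shared evenly by all genes would not show, and fewer cells and less RNA per cell cannot be told apart.

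**Figure D2:**
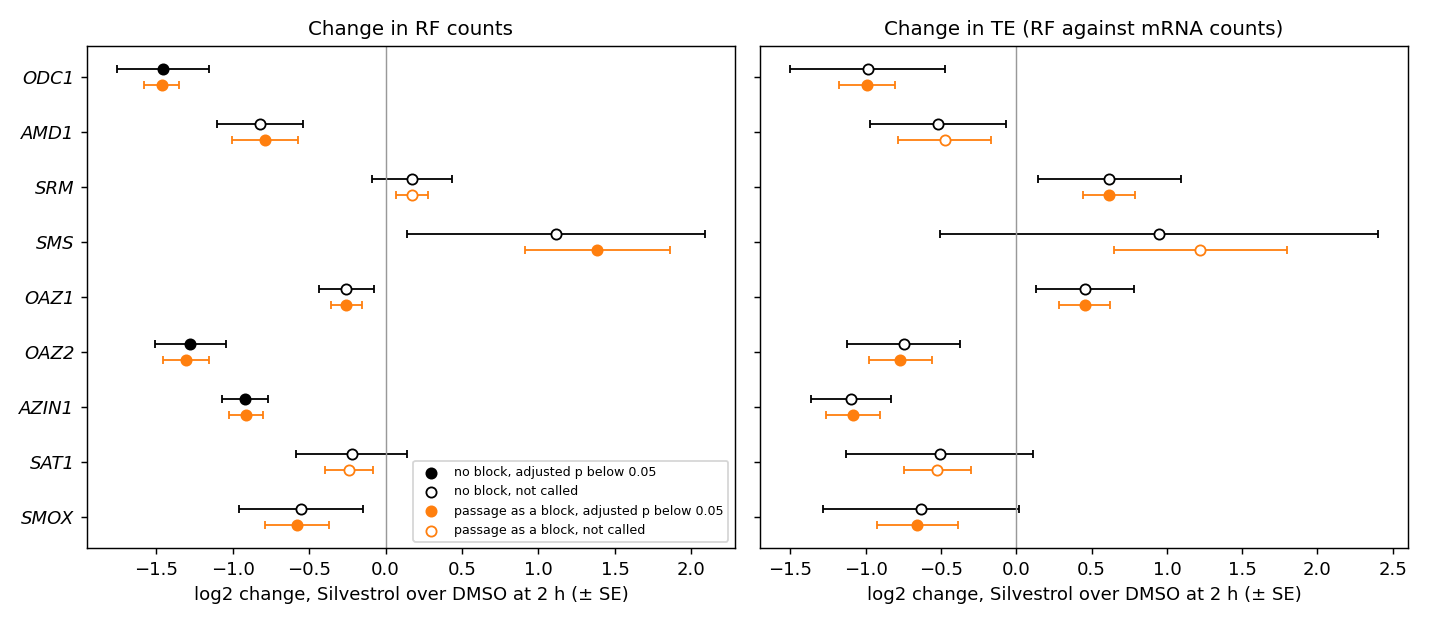
Log2 change (Silvestrol over DMSO at 2 h, with the SE of the edgeR model) in RF counts (left) and in TE (right), with and without the passage as a block, filled where the adjusted p was below 0.05. Without the block ODC1, OAZ2 and AZIN1 are filled on the left at −1.46, −1.28 and −0.92, and no gene is filled on the right.

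With Silvestrol at 1 h the log2 RF changes in RPKM of ODC1, AMD1, AZIN1, OAZ1, SMOX and OAZ2 were at −0.58 or below. That limit is the value of OAZ2, which stood at percentile 22.3 of all genes. In reads as a share of the counted reads of the library SMOX was at −0.50 and OAZ2 at −0.44. At that time there was 1 library for each treatment and no test, and intervals of 95% cover counting error only. The log2 RF change of ODC1 was −1.11 at 1 h (−1.17 to −1.04), −1.86 at 2 h in passage 3 (−1.96 to −1.77) and −1.33 in passage 4 (−1.57 to −1.10), in RPKM. OAZ2 went from −0.58 at 1 h (−0.68 to −0.47) to −1.55 at 2 h in passage 3 (−1.71 to −1.38). Both genes were thus further down at 2 h in the same passage, and neither difference between times was tested.

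AMD1 was at −1.35 at 1 h (−1.59 to −1.10) and −1.24 at 2 h in passage 3 (−1.52 to −0.96), and AZIN1 at −0.88 and −1.05. In RPKM AMD1 was the lowest of the 9 at 1 h, at percentile 2.91 of all genes, where its counted length rose 1.30 times relative to the median gene. In reads as a share of the counted reads of the library, which carry no length, ODC1 was the lowest at 1 h, with a log2 change of −0.94 against −0.83 for AMD1. OAZ1 was further down at 1 h, at −0.78, than at 2 h, at −0.60 in passage 3 and −0.46 in passage 4. SMOX was at −0.63 at 1 h (−0.83 to −0.42). The median of all genes was −0.19 at 1 h, −0.17 at 2 h in passage 3 and −0.15 in passage 4.

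The DMSO library was also compared with no treatment. Between the DMSO library at 2 h and the untreated library of passage 3 the log2 RF change was −0.03 for ODC1, 0.24 for OAZ2, −0.24 for AZIN1, 0.16 for OAZ1 and 0.13 for SRM. It was 0.29 for SAT1 and 0.09 for SMOX, and −0.76 for SMS on few reads. AMD1 was the furthest up of the 9, at 0.39 and percentile 95.2 of all genes.

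The mRNA levels of 5 of the 9 genes were lower and those of 4 higher with Silvestrol, and TE did not pass the test for any of the 9. With 1 mRNA library for each treatment, ODC1 mRNA went from 153 to 120 RPKM, AMD1 from 10.9 to 8.79, SRM from 173 to 137, OAZ2 from 62.2 to 46.6 and OAZ1 from 1227 to 778 RPKM. AZIN1 mRNA went the other way, from 44.9 to 56.1 RPKM, as did SAT1 from 64.9 to 86.7, SMOX from 14.6 to 17.1 and SMS from 10.4 to 13.1 RPKM. On the log2 scale these changes ran from −0.66 for OAZ1 to 0.42 for SAT1, beside a median of 0.04 over all genes. That of AMD1 was −0.31 in RPKM and −0.11 in reads as a share of the counted reads. The mRNA change of OAZ1 was as large as its RF change in passage 3 (−0.66 and −0.60), whereas that of AZIN1 was opposite in sign to its RF change.

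The change in TE was tested in a model of RF and mRNA counts together, as the treatment effect on RFs beyond that on mRNA. It was −1.10 with an SE of 0.27 for AZIN1 (edgeR, adjusted p = 0.104), −0.99 with an SE of 0.52 for ODC1 (adjusted p = 0.303) and −0.75 with an SE of 0.38 for OAZ2 (adjusted p = 0.289). It was 0.62 with an SE of 0.47 for SRM and 0.45 with an SE of 0.33 for OAZ1. Without the DMSO RF library of passage 3 the TE change was −0.55 for ODC1 and −0.49 for OAZ2, and without that of passage 4 it was −1.37 and −1.0. That of SRM was 0.32 without the DMSO library of passage 4 or the Silvestrol library of passage 3, and that of OAZ1 was 0.25 and 0.30. This test called 0% of all genes in either direction, with 24.5% of genes and 1 of the 9, AZIN1, at an unadjusted p under 0.05. DESeq2, which gave AMD1 and SMS no adjusted p, called none of the other 7, beside 5.14% of all genes lower and 3.8% higher.

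With the passage as a block 4 of the 9 were called lower in TE, beside 23.4% of all genes, and 2 were called higher, beside 23.8%. Lower were AZIN1 (adjusted p = 3.87e-05), ODC1 (0.000169), OAZ2 (0.00457) and SMOX (0.0494), and higher were SRM (0.00546) and OAZ1 (0.0302), all by edgeR. AMD1 was not called in that fit (adjusted p = 0.215). The mRNA arm has 1 library for each treatment, both of passage 3, so the spread comes from the RF libraries alone, mRNA is assumed to vary like them, and 1 residual degree of freedom is left. With the counted-length offset added, SMOX and OAZ1 were no longer called (edgeR, adjusted p = 0.0624 and 0.0719).

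As a z-score over all genes, the change in TE from the passage 3 RPKM values was −1.19 for ODC1, −1.05 for AZIN1, −0.81 for OAZ2 and −0.62 for AMD1, and 0.60 for SRM and 0.36 for OAZ1. None of the 9 was below −1.5, the threshold of the study, as 6.29% of all genes were. SMS was above 1.5, at 1.55, as 4.37% of all genes were, and with the RFs of passage 4 its z-score was 0.15. With the RFs of passage 4 ODC1 was at −0.71, AZIN1 at −1.11, OAZ2 at −0.56 and AMD1 at −0.95, so that AMD1 then lay below ODC1. The RF change of ODC1 was at percentile 2.32 of all genes in passage 3 and 7.15 in passage 4, and its TE change at percentiles 10.7 and 22.7.

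With INK128 at 2 h the footprints of ODC1, AMD1 and AZIN1 were lower than with DMSO, in 1 library for each treatment and with no test. ODC1 went from 46.0 FPKM with DMSO to 26.6 with INK128, AMD1 from 24.6 to 13.4 and AZIN1 from 37.5 to 26.4. The log2 changes of −0.79, −0.88 and −0.51 stood at percentiles 2.62, 2.35 and 4.28 of the 7092 genes, whose median was 0.01.

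The antizymes differed less between DMSO and INK128, OAZ1 going from 164 to 147 FPKM and OAZ2 from 11.4 to 12.0. SRM went from 63.8 to 65.8, SAT1 from 22.6 to 22.8 and SMS from 156 to 128 FPKM. OAZ2 was at −1.55 and −1.25 in RPKM under Silvestrol in the 2 passages and at 0.07 in FPKM under INK128. Silvestrol and INK128 were measured in separate tables, and this difference was not tested.

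**Figure D3:**
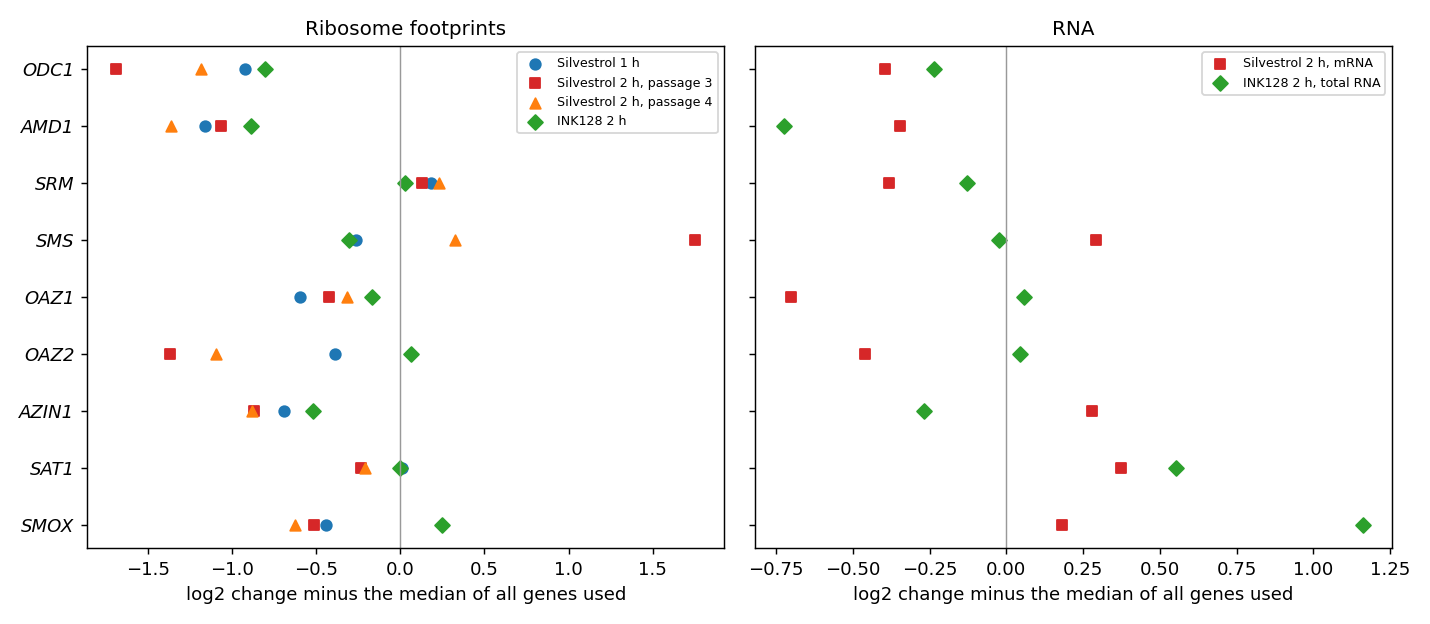
Log2 change minus the median of all genes used, for footprints (left) with Silvestrol at 1 h and 2 h and with INK128, and for RNA (right), 1 point for each pair of libraries. ODC1, AMD1, AZIN1 and OAZ1 lie below 0 on the left under both drugs (OAZ1 at −0.17 under INK128), and OAZ2 lies at −1.37 and −1.10 under Silvestrol at 2 h and at 0.06 under INK128.

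Total RNA values under INK128 were lower for nearly every gene, with a median log2 change of −1.17 over all genes, so changes are given relative to it. AMD1 was at −0.73 relative to the median (1.40 to 0.377 FPKM, percentile 1.12), AZIN1 at −0.27 and ODC1 at −0.24. SRM, SMS, OAZ1 and OAZ2 lay between −0.13 and 0.06, and SAT1 at 0.55. These RNA values depend on the pseudocount. With 1 FPKM added, AMD1 was at −0.32 relative to the median (percentile 16.8), ODC1 and SRM at −0.58, OAZ1 at −0.57, SMS at −0.42 and OAZ2 at −0.26, so that OAZ1 and OAZ2 turned in sign, and SAT1 was at 0.13. The TE z-score of AMD1 without a pseudocount was −0.20.

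The TE z-scores under INK128 were −0.99 for ODC1, −0.96 for SAT1, −0.42 for SMS, −0.37 for AZIN1, −0.32 for OAZ1, 0.15 for OAZ2 and 0.44 for SRM. OAZ1 turned to 0.33 with the stricter filter. With 1 FPKM added its TE change relative to the median turned from −0.23 to 0.38 and that of SMS from −0.28 to 0.10. With it that of AMD1 went from −0.17 (percentile 29.6) to −0.55 (percentile 4.60), while ODC1 went from −0.57 (percentile 8.89) to −0.23 (percentile 20.8) and SAT1 from −0.56 to −0.16. SRM went from 0.16 (percentile 72.0) to 0.59 (percentile 95.6), OAZ2 from 0.01 to 0.29 and AZIN1 from −0.26 to −0.12. The order of the members thus depends on the pseudocount. None of the 8 genes used was below −1.5, as 5.58% of all genes were, or above 1.5, as 1.72% were. SMOX, outside the filter with 0.191 and 0.190 FPKM of total RNA, went from 3.88 to 4.66 FPKM in footprints. Its TE z-score was −1.66, below −1.5, and rests on those low RNA values.

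ODC1, AMD1, OAZ2 and AZIN1 had the longest annotated 5′ UTRs of the group. In the selected GENCODE transcripts the 5′ UTR was 590 nt in AZIN1, 334 nt in ODC1, 321 nt in AMD1 and 233 nt in OAZ2, against a median of 133 nt over 10262 genes. It was 179 nt in SAT1, 176 nt in SMOX, 116 nt in SMS, 79 nt in OAZ1 and 75 nt in SRM. These lengths depend on the annotated start. The loci given with the INK128 values start further upstream for SMS (21958690, not 21958827) and SMOX (4129425, not 4129475). That of OAZ2 starts further downstream (64995462, not 64995480, minus strand). Lengths from those starts were not measured, so the order and the split below hold for the selected transcripts only. At a limit of 200 nt, chosen after these values were seen, 3 of the 4 longer members and 0 of the 5 shorter ones were called lower in footprints. Over all genes 18% of those with a 5′ UTR of 200 nt or longer and 2.49% of the shorter ones were called lower (edgeR). With the passage as a block 4 of the 4 longer members and 2 of the 5 shorter ones, OAZ1 and SMOX, were called lower, beside 53.7% and 15.6% of all genes of these lengths.

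Base composition and folding varied among the members. The GC content was 65.9% in ODC1, near the median of 67.6%, and 43.0% in AMD1, at percentile 1.95, while SRM had 88.0%. The minimum free energy was −183.4 kcal/mol for AZIN1 and −152.5 kcal/mol for ODC1, against −76.4 for AMD1 and a median of −51.5 kcal/mol. Per nucleotide, AMD1 was at percentile 83.5, on the weakly folded side, and ODC1 at percentile 26.4.

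In the selected transcripts an upstream ATG was present in 6 of the 9 members, against 38.7% of all genes with at least 1. AZIN1 had 3, OAZ2 and SAT1 2 each, and ODC1, AMD1 and SMS 1 each. Those of OAZ2 start at bases 1 and 7 of its transcript, outside the locus given with the INK128 values. OAZ2 is thus counted only by its annotated start. The upstream frames of ODC1 (10 codons) and AMD1 ended 128 and 289 bases before the main start. SRM, OAZ1 and SMOX had none. No transcript of the 9 began with the C and run of pyrimidines of mRNAs that mTOR is known to control, as 5.45% of all genes did. ODC1 began gtcagtccctcctgt (chr2:10588439-10588453, minus strand) and AMD1 began gcttacacagtatgg (chr6:111195988-111196002, plus strand), shown because these 2 had the lowest footprint changes of the group under INK128.

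**Figure D4:**
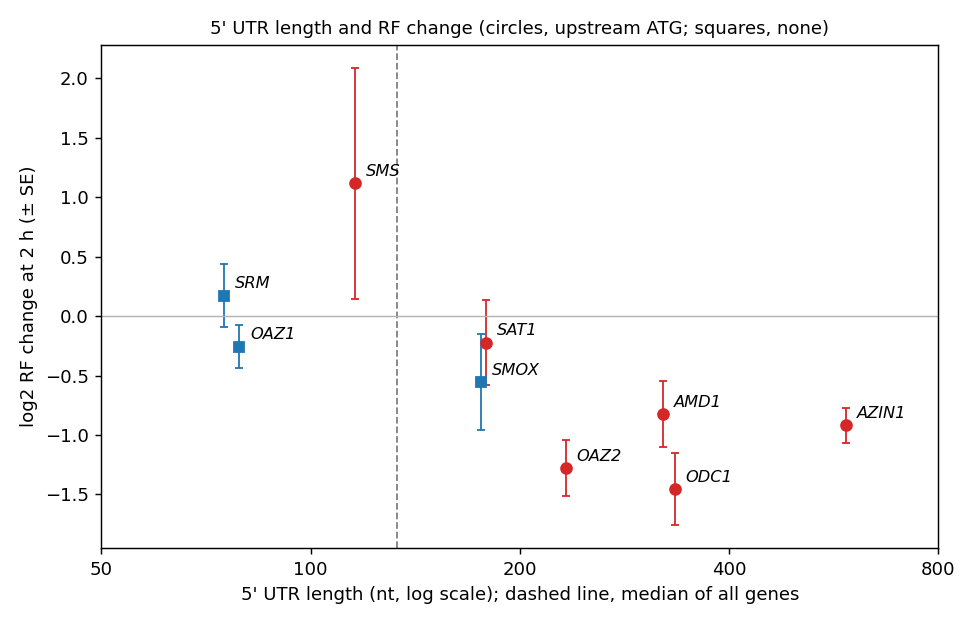
Length of the annotated 5′ UTR (nt, log axis) against the log2 RF change at 2 h of Silvestrol (with the SE of the edgeR model) for the 9 genes. Circles mark genes with an upstream ATG in the selected transcript and squares those without. The 4 genes with 233 nt or more lie at −0.82 or below, and the dashed line is the median length of 133 nt.

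The other genes of the pathway were counted by list. Of 44 other genes in 5 lists (polyamine oxidation and the other antizyme family genes, ornithine and arginine supply, hypusine, methionine salvage, and transport) 31 passed the filter. Of these 1 was called lower and 2 higher in footprints at 2 h, beside the 7.56% and 2.17% of all genes, and their median log2 change was −0.11. With the passage as a block 5 were called lower and 8 higher, beside 28.1% and 25%. The 3 calls were genes of S-adenosylmethionine use and methionine salvage, and with the block calls also lay in oxidation and the antizyme family, in ornithine supply and in transport. AZIN2, a relative of AZIN1 named after its values were seen, had a log2 change of −1.11 with an SE of 0.26 (edgeR, adjusted p = 0.0605, and 8.16e-05 with the block).

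ADI1, which acts in methionine salvage, rose from 260 to 443 RPKM in passage 3 and from 304 to 455 in passage 4, a log2 change of 0.79 with an SE of 0.14 (edgeR, adjusted p = 0.0355). AHCY, which clears S-adenosylhomocysteine, rose from 307 to 498 RPKM and from 197 to 285 RPKM, a log2 change of 0.71 with an SE of 0.14 (adjusted p = 0.0416). AHCYL1, a relative of AHCY, fell from 182 to 100 RPKM and from 201 to 112 RPKM, a log2 change of −0.72 with an SE of 0.12 (adjusted p = 0.0344). In each of the 3 genes both passages moved the same way, but they were picked by a test on these same libraries, so this is no further support.

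By TE z-score with Silvestrol from the passage 3 RFs 4 of the 31 were above 1.5 and none below −1.5, beside 4.37% and 6.29% of all genes. These were MAT2A, which makes S-adenosylmethionine, at 2.07, EIF5A, the protein that carries hypusine, at 1.86, AHCY at 1.85 and MRI1 of methionine salvage at 1.59. EIF5A had only 0.925 RPKM in the passage 3 DMSO RF library and 3.05 RPKM in that of Silvestrol. It thus met the limit of 1 for mean RF RPKM only through the library where it was high, and its place among the 4 rests on that. With the RFs of passage 4 its z-score was 1.21. With those RFs SLC18B1, a vesicular polyamine transporter, was below −1.5, at −1.60, on 2.23 RPKM with DMSO and 0.842 RPKM with Silvestrol. MAT2A mRNA went from 99.0 to 41.5 RPKM while its footprints went from 198 to 283 RPKM in passage 3. Its RF change over both passages just missed the threshold (edgeR, adjusted p = 0.0555). Under INK128 AHCY was at −1.51, the 1 gene of the 23 used there that was below −1.5, beside 5.58% of all genes.

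Over the 6 log2 changes in RPKM or FPKM (RFs at 1 h, RFs at 2 h in both passages, mRNA, and RFs and total RNA under INK128) the genes with the pattern most like ODC1 among 5794 were CCNI, UCP2, PABPC4, CCDC85C and GLTPD1. Their distances were 0.56 to 0.75 in log2 units, against a median of 2.58. AMD1 came 11th in that order, at 0.85, OAZ2 113th and AZIN1 152nd, and SRM came 3201st. The genes most like AMD1 were ZNF496, ODC1, TFPT, SMAP2 and ETF1, at 0.75 to 0.95 against a median of 2.54. In these values ODC1 and AMD1 were nearer to each other in pattern than either was to any other member used there. The AMD1 values carry its rise in counted length (1.30 times at 1 h, and 1.35 and 1.21 times at 2 h in passages 3 and 4). Its INK128 total RNA rests on 0.377 FPKM with the drug. Distances from reads as a share of the counted reads, which carry no length, were not measured.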

How the data were processed

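The 2 deposited tables, 1 for each drug, were the source of all values. For the Silvestrol table the authors discarded rRNA, mapped reads to hg19 with Bowtie, allowing 2 mismatches and 16 alignments, and deposited, for each transcript, counts of uniquely mapped reads and an RPKM value. For INK128 the authors deposited FPKM values, without counts, and the program is not given in the sources used here. The authors' own TE, log2 and score columns, and pooled means, were not used. All columns that hold a library's values were used, apart from 0 that could not be assigned.

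Genes were kept where RPKM exceeded 0 in all passage 3 libraries at 2 h, with means of 1 or more for RF RPKM and 0.3 or more for mRNA RPKM, and the same limits held for FPKM. The count test was the quasi-likelihood test of edgeR 4.0.16 (R 4.3.3, TMM, glmQLFit, glmQLFTest) over all genes kept, with Benjamini-Hochberg adjustment and a threshold of 0.05. RFs were compared with 2 libraries against 2, and TE with 2 mRNA libraries added. DESeq2 1.42.0, other scalings, filters and an offset for counted length were tried in its place. Log2 changes of RPKM and FPKM carry no pseudocount and no test. In a simulation in which 200 of 10509 genes changed by 2 (log2), 195 were recovered in RFs with 6 false calls, and 162 in TE with 3 false calls. It checked only that the code ran as meant. The simulated counts had 1 dispersion for all genes, the same means in RFs and mRNA, and no difference between passages. The largest member change in the RF test without a block was smaller, at −1.46. Power and false calls in the real data were thus not measured.

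DMSO and Silvestrol libraries were paired by the passage number in the labels, and deviations of the passages correlated with r = 0.758 over 10509 genes. Named genes were the 9 members, pathway genes past a threshold, CCND1, and the 5 genes nearest to ODC1 and to AMD1 by Euclidean distance. The members and the lists were chosen with earlier results of these data known. 5′ UTRs came from GENCODE version 44 on GRCh37 (10262 of 10509 genes) and were folded with RNAfold 2.7.2. Each member had a single entry in the Silvestrol table.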

Additional observations from a re-analysis of the deposited data

Results flagged for a closer look

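SMS was the 1 member whose footprints in RPKM moved one way at 1 h and the other way in both passages at 2 h. Its log2 RPKM change with Silvestrol was −0.45 at 1 h, where counting error gives −1.45 to 0.55, and 1.58 and 0.18 at 2 h in passages 3 and 4. The difference between the times was not tested, each value rests on 12 to 25 reads in a library, and 1 library for each treatment was made at 1 h.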

How the results depend on the processing

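Of 9 members, 3 were called lower in RFs and 0 in TE without a block. With the passage as a block the numbers called lower were 6 in RFs and 4 in TE, and those called higher were 1 and 2. With the block and the counted-length offset together (chosen after seeing the data) they were 6 and 3 lower and 0 and 1 higher. Of all genes that fit called 27.7% lower and 24.2% higher in RFs, and 23% lower and 23% higher in TE. With the 1 h pair as a further block 6 were lower in RFs, with or without that offset, beside 26.6% and 26.4% of all genes. Leaving out 1 replicate gave 0 to 3 members lower in RFs. In those fits the lone library was assumed to vary like the other group. Over them the RF change ran from −0.11 to 0.50 for SRM and from −0.69 to 0.22 for SAT1, and the TE change of SMS from −0.12 to 2.26, so these 3 turned in sign, and the RF change of SMS ran from 0.10 to 2.51, of OAZ1 from −0.43 to −0.06 and of SMOX from −1.10 to −0.12. The TE change ran from −1.37 to −0.55 for ODC1, from −1.0 to −0.49 for OAZ2, from −1.01 to −0.08 for SAT1, from −1.22 to −0.21 for SMOX, from −0.88 to −0.30 for AMD1, from 0.32 to 0.93 for SRM and from 0.25 to 0.63 for OAZ1. The causes were not tested. Pseudocounts of 0.1 to 1 FPKM moved the INK128 total RNA change of AMD1 from −1.89 to between −1.65 and −0.80, and its TE change from 1.02 to between 0.78 and −0.03. The block changed the call of ODC1, AZIN1, OAZ2, SRM, OAZ1 and SMOX in TE and of AMD1, OAZ1, SMOX and SMS in RFs, and of no other member. The alternative of other entries of a symbol could not be run, since each member had 1 entry. The strict filters removed SMS from the count tests and left only SRM and OAZ1 in the INK128 z-scores. Depth limits SMS, AMD1 and SMOX in passage 4, with 14, 20 and 22 Silvestrol reads.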
